A study of Mus musculus with 16 samples.

Results

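The proteasome genes described here are the genes of the counts table whose mouse symbol starts with Psma, Psmb, Psmc, Psmd or Psme followed by a digit, pseudogenes left out, and whose mean count over the 16 libraries was at least 50. The rule found 44 of the 24454 genes in the table. All 44 were among the 15487 genes tested. Another 2 genes had a matching name and fell under the minimum, namely Psma8 and Psmb11, the germline and thymus forms of a core subunit. The lowest gene inside the rule was Psmb9, with a mean of 229 counts. By role, the 44 genes comprised 7 genes of the alpha ring, 7 constitutive genes of the beta ring, 3 catalytic genes of the immunoproteasome, 6 ATPases and 3 other genes of the base, 8 genes of the lid, 3 assembly chaperones of the regulatory particle, 5 activator genes, and 2 genes that share only the start of the name. These last 2 are Psmc3ip, whose product works in meiotic recombination, and Psme3ip1, whose product binds an activator, and neither encodes a subunit.

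The proteasome is the protease that removes proteins tagged with ubiquitin. Its core is a barrel of stacked rings, with outer alpha rings that gate the entry and inner beta rings that hold the proteolytic sites, and it is capped by a regulatory particle whose lid removes ubiquitin and whose base of ATPases unfolds the substrate. In cells exposed to interferon, Psmb8, Psmb9 and Psmb10 respectively replace the constitutive catalytic subunits Psmb5, Psmb6 and Psmb7 and form the immunoproteasome. In skeletal muscle the proteasome degrades contractile proteins, and its genes are known to be induced when muscle wastes.

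The data are RNA-seq counts of the gastrocnemius, a calf muscle, of mice aged 3 months. HSALR mice were homozygous for the transgene of the line LR20b, a human skeletal actin gene with expanded CTG repeats that is expressed in skeletal muscle and serves as a model of myotonic dystrophy type I. Control mice were of the FVB/N background strain and carried no transgene. Mice of each genotype received vehicle or AICAR, an activator of AMP-activated protein kinase, at 500 mg/kg for 7 days, with 5 HSALR mice and 3 control mice in each treatment group. Mice are called by the S numbers of their labels. Human ACTA1, the transgene, was not analysed here.

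The libraries held 64890014 to 81987726 counts, of which the 44 genes took 0.412% to 0.493%. All 10 skeletal muscle markers were abundant in every library, with a summed level of 124969 to 184263 normalized CPM, that is, counts relative to the library total after TMM scaling. After vehicle, 2 of these 10 were higher and 1 lower in HSALR muscle, close to the 15.4% and 11.5% of all genes, with log2 fold changes from -0.78 to 1.52, the highest for the fast myosin Myh1, and 3 of 11 leukocyte markers tested were higher, against the same 15.4%. Their part in the differences of the proteasome genes was not tested. Epidermal markers stood apart in 6 libraries, with Krt14 above 1 normalized CPM in S450 of the vehicle-treated control mice, S448 of the AICAR-treated control mice, and S452, S453, S458 and S459 of the vehicle-treated HSALR mice. The summed level of the epidermal markers was 0.242 to 0.371 normalized CPM in the 5 AICAR-treated HSALR mice and reached 187 in the other groups. In RNA from whole muscle, fewer cells of a type and less RNA per cell cannot be told apart.

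Levels per kilobase of transcript (RPKM) differed among members of the same complex. In vehicle-treated control muscle the 7 constitutive beta ring genes ranged from 60.7 to 217 RPKM with a median of 111, and the 7 alpha ring genes from 17.2 to 108 with a median of 69.7. The 6 ATPases of the base ranged from 57.6 to 129 RPKM and the 8 lid genes from 41.7 to 111. Psmb7, which encodes the trypsin-like catalytic subunit, was the highest member at 217 ± 2.78 RPKM (SD, n = 3), followed by Psmb4, a structural subunit of the beta ring, at 129 ± 6.57, and Psmc3, an ATPase, at 129 ± 7.34, and the last 2 did not differ beyond their spread. The 3 immunoproteasome genes were far lower, with Psmb8 at 9.36 ± 3.65, Psmb10 at 8.38 ± 1.13 and Psmb9 at 5.25 ± 2.19 RPKM, and these 3 overlapped within their SDs. Psmd5, an assembly chaperone of the base, stood at 11.5 ± 0.606 RPKM. Levels of some members are uncertain, because they share sequence with other genes. Of the 50-base stretches of their transcripts, 69.3% in Psme2b, 54.1% in Psmb5 and 28.3% in Psme2 also occurred in another gene, with Psma5 between Psmb5 and Psme2. A read with equal matches was assigned to a single location.

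The first question was how the proteasome genes of HSALR muscle differed from those of control muscle without AICAR. After vehicle, 23 of the 44 genes were higher in HSALR mice and 0 were lower at an adjusted p under 0.05 in the edgeR quasi-likelihood test with Benjamini-Hochberg adjustment over all 15487 genes. Of all genes tested, 15.4% were higher and 11.5% were lower. The differences were small, with a median log2 fold change of 0.18 over the 44 genes against 0.01 over all genes, and 36 of the 44 lay above 0. The calls covered 20 of the 31 constitutive genes of the 26S particle, of which 10 of 14 belonged to the core and 10 of 17 to the regulatory particle. At an unadjusted p under 0.05, 29 of the 44 were higher and 1 was lower, and that share of all genes is not given here. DESeq2 called 24 higher and 0 lower, against 16.1% of all genes higher. With an epidermal score, from the summed markers, as covariate 21 were higher and 0 lower, against 13.7% of all genes higher. Scaling to Tbp gave 36 higher and a median of 0.45, where 32.6% of all genes were higher with a median of 0.28. With an offset for gene length 10 were higher and 1 lower, and without the 6 libraries with Krt14 there were 2 higher. The immunoproteasome genes and the activator genes were not among the 23 calls of the main fit.

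In the core, 4 of the 7 alpha ring genes rose, with a median log2 fold change of 0.17 over the ring. Psma5 rose by 0.26 ± 0.04 (standard error, adjusted p = 0.000537) and Psma4 by 0.22 ± 0.05, while the least changed gene of the ring, Psma2, differed by 0.10 ± 0.04. Of the beta ring, all 4 structural genes rose, namely Psmb1 by 0.39 ± 0.06 and Psmb4 by 0.36 ± 0.06, followed by Psmb2 and Psmb3. Among the constitutive catalytic genes, Psmb5 (chymotrypsin-like) rose by 0.24 ± 0.05 and Psmb6 (caspase-like) by 0.24 ± 0.06, and Psmb7 differed by 0.10 ± 0.05 without passing the test (adjusted p = 0.164).

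In the regulatory particle, 6 of the 8 lid genes, 3 of the 6 ATPases and 1 of the 3 other base genes rose. The lid holds the largest changes among subunits, with Psmd8 at 0.47 ± 0.07 and Psmd11 at 0.47 ± 0.06, and Psmd7, the partner of the deubiquitinase Psmd14, at 0.32 ± 0.05. Psmd3 was the least changed lid gene at 0.06 ± 0.06. Of the ATPases, Psmc4 rose by 0.25 ± 0.05 and Psmc3 by 0.23 ± 0.06, whereas Psmc6 differed by -0.01 ± 0.06. In the rest of the base, Psmd4, a ubiquitin receptor, rose by 0.39 ± 0.07, and the scaffold genes Psmd1 and Psmd2 differed by -0.00 ± 0.07 and -0.02 ± 0.07. Of the 3 chaperone genes, Psmd5 alone passed the test. Psmc3ip and Psme3ip1, which encode no subunit, were also higher, by 0.29 ± 0.06 and 0.13 ± 0.05, so 21 of the 42 genes with a proteasome role were called. The call of Psme3ip1 was lost in 26 of 30 alternative settings and that of Psmb3 in 15.

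**Figure D1:**
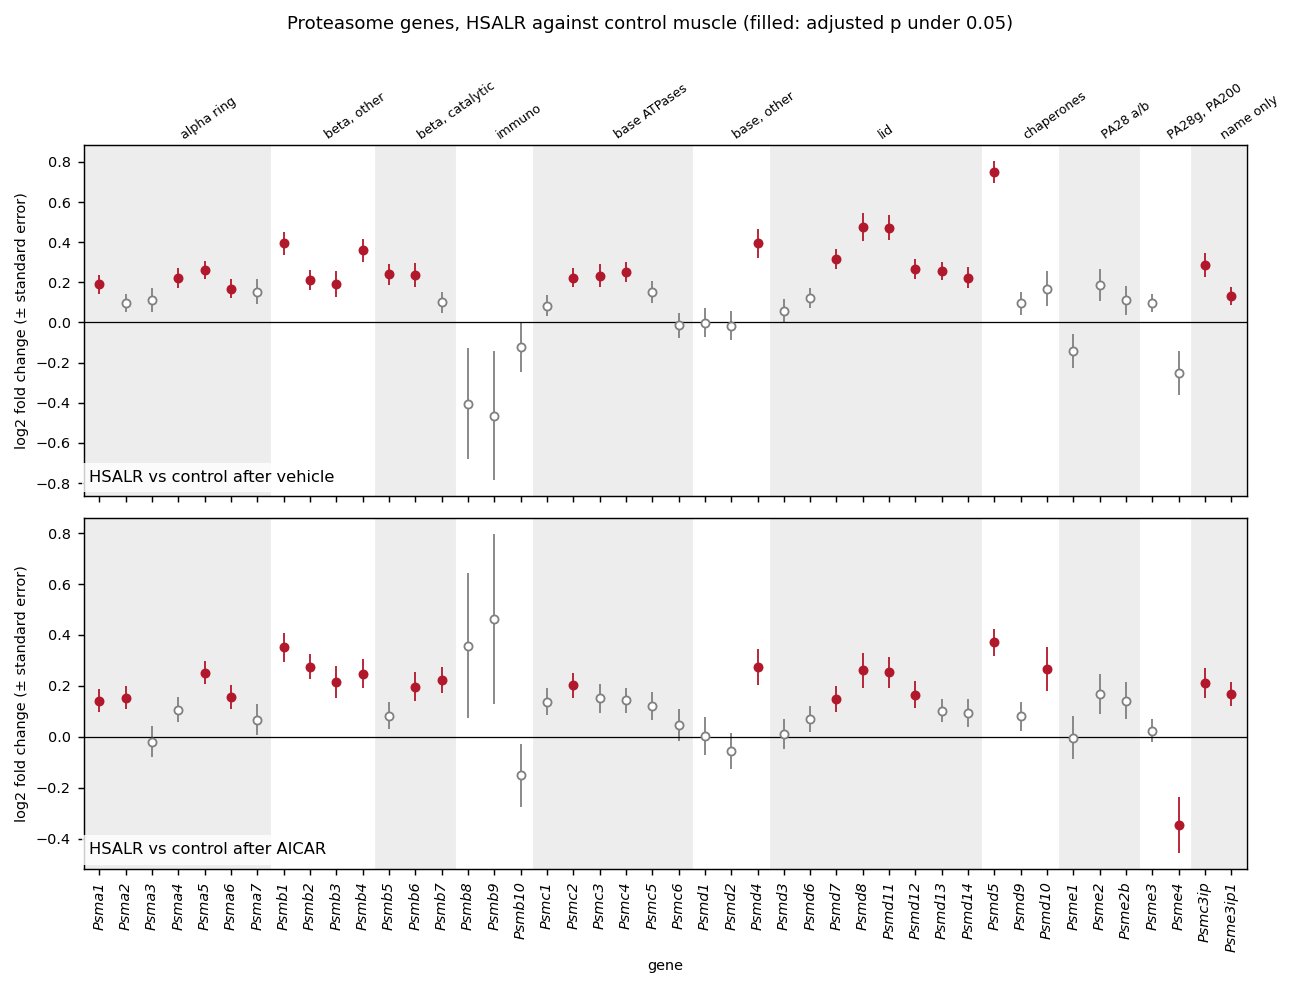
Log2 fold change (y axis, ± standard error) of the 44 proteasome genes (x axis, grouped by role and shaded by group) between HSALR and control muscle after vehicle (top) and after AICAR (bottom), with filled points for an adjusted p under 0.05. After vehicle 23 genes are filled and all lie above 0, and after AICAR 20 filled genes lie above 0 and Psme4 lies below.

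The values of single mice show the size of these differences. Psmd8, a lid subunit, stood at 101, 101 and 108 normalized CPM in the vehicle-treated control mice and at 135, 143, 152, 142 and 146 in the vehicle-treated HSALR mice. Every HSALR mouse was above every control mouse, and the fitted ratio was 1.39 (adjusted p = 0.000161). Psmd11, another lid subunit, stood at 72.2, 77.7 and 77.4 normalized CPM in the control mice and at 106, 106, 108, 99.4 and 106 in the HSALR mice, a ratio of 1.39 with no overlap (adjusted p = 6.34e-05). Psmd4 was at 149, 147 and 173 normalized CPM in the control mice and at 181, 212, 208, 206 and 221 in the HSALR mice. The groups did not overlap, with the lowest HSALR mouse, S451, just above the highest control mouse, S450, and the ratio was 1.31 (adjusted p = 0.000925). Without the 6 libraries with Krt14, which left 1 vehicle-treated HSALR mouse, Psmd5 and Psmd11 were the 2 genes called of the 44, about the share of all genes called higher there, 4.14%, and the median log2 fold change of the 44 genes was 0.11.

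**Figure D2:**
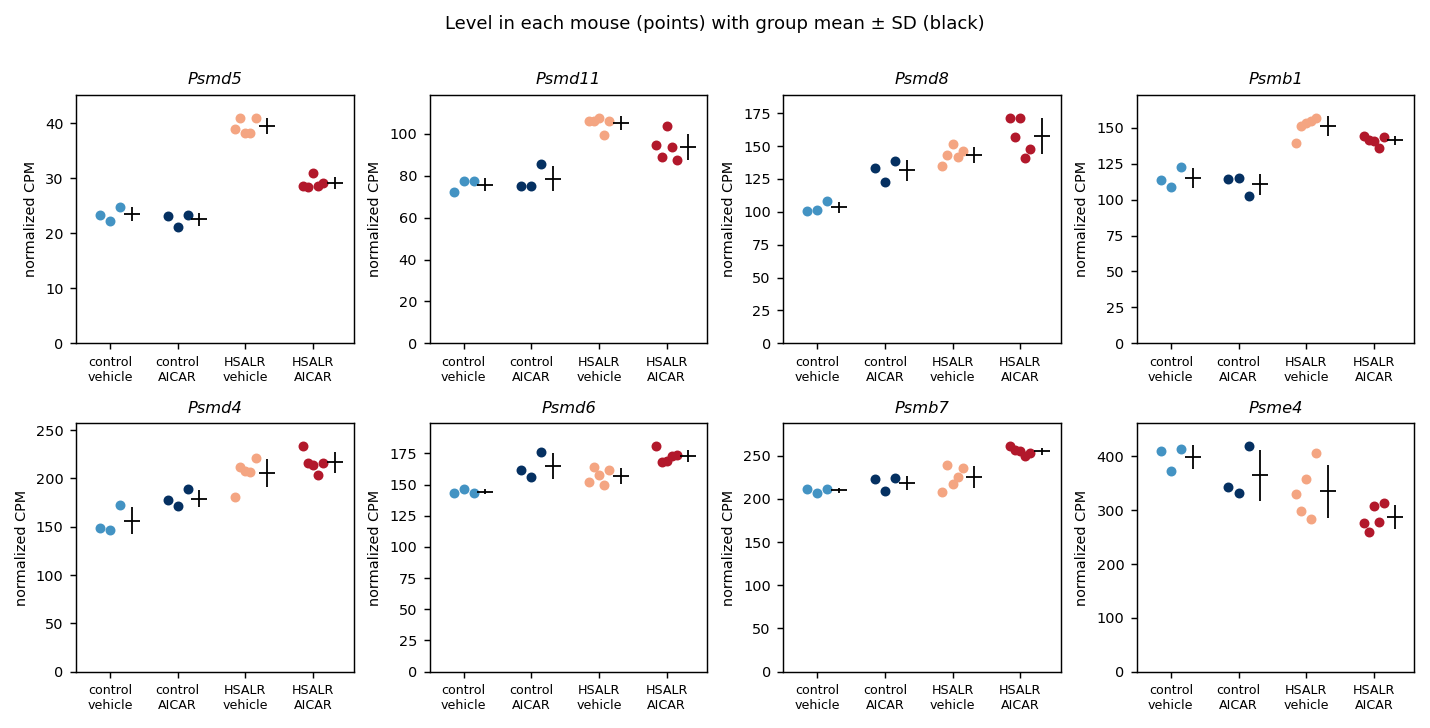
Level of 8 proteasome genes (y axis, normalized CPM, starting at 0) in each of the 16 mice by group, with group mean ± SD in black. Psmd5 is highest in the 5 vehicle-treated HSALR mice and intermediate in the 5 AICAR-treated HSALR mice, and Psmd8 is lowest in the 3 vehicle-treated control mice.

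The same comparison among AICAR-treated mice used other animals, within the same fit over all 16 libraries. There, 20 of the 44 genes were higher in HSALR muscle, against 12.2% of all genes tested, and 1 was lower, against 9.64%. The median log2 fold change of the 44 genes was 0.15, with 0.00 over all genes. The calls held 10 of the 14 constitutive core genes and 6 of the 17 genes of the regulatory particle. Among the calls, 17 genes were higher after vehicle as well, which was 73.9% of the 23 called after vehicle and 85% of the 20 called after AICAR. The overlap of calls over all genes is not given here, and both comparisons shared 1 estimate of the spread. Psma4, Psmb5, Psmc3, Psmc4, Psmd13 and Psmd14 were called after vehicle and not after AICAR, and Psma2, Psmb7 and Psmd10 the other way round. None of these 9 genes passed the test of the difference between the AICAR effects of the genotypes. With the epidermal score as covariate, 18 of the 44 genes were higher, against 11.6% of all genes, and 1 was lower. The 21 calls became 9 to 22 when each mouse was left out, 9 without the Krt14 libraries, of which 8 were higher against 8.16% of all genes, and 0 with scaling to Tbp, where the median of the 44 genes was 0.11 and that of all genes -0.04.

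Beside Psmd5, described with the chaperones, the called genes with the largest rises after AICAR were Psmb1 and Psmb2 of the beta ring and Psmd4. Psmb1 stood at 115, 115 and 102 normalized CPM in the AICAR-treated control mice and at 144, 142, 141, 136 and 144 in the AICAR-treated HSALR mice, with no overlap and a log2 fold change of 0.35 ± 0.06 (adjusted p = 0.000487). Psmb2 was at 53.8, 51.6 and 53.9 normalized CPM in the control mice and at 64.3, 62.7, 65.3, 64.5 and 64.4 in the HSALR mice, again without overlap, and rose by 0.28 ± 0.05 on the log2 scale. In the base, Psmd4 was at 177, 171 and 189 normalized CPM in the control mice and at 234, 216, 214, 203 and 216 in the HSALR mice, with a log2 fold change of 0.27 ± 0.07. All 5 HSALR mice were above the control mice for each of these genes. Psme4, which encodes the PA200 activator, was the gene that fell, from 343, 332 and 419 normalized CPM in the control mice to 277, 259.6, 307, 279 and 314 in the HSALR mice, a log2 fold change of -0.35 ± 0.11 (adjusted p = 0.0336). This call was lost in 7 of 30 alternative settings, among them the gene length offset (log2 fold change -0.25, adjusted p = 0.0777). After vehicle it differed by -0.25 ± 0.11 (adjusted p = 0.1), with 409.5, 374 and 415 normalized CPM in control and 329, 299, 359, 283 and 406 in HSALR mice, which overlapped.

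Gene length moved with the genotype difference. The 44 genes had a median length of 1390 bases, against 2883 for all genes tested, and 41 of the 44 were shorter than that median. Over all genes, Spearman's rho between length and the log2 fold change of HSALR against control muscle was -0.26 after vehicle and -0.21 after AICAR, a description over genes that are not independent. With an offset for gene length fitted in each library, 10 genes remained higher after vehicle, namely Psmb1, Psmb4, Psmc4, Psmd4, Psmd5, Psmd7, Psmd8, Psmd11, Psmd12 and Psmd13, where 13.5% of all genes were higher in that fit, and Psme1, an activator gene, was lower. The median log2 fold change of the 44 genes was then 0.07. After AICAR, Psma5, Psmb1, Psmb2 and Psmd5 remained higher and the median was 0.06. These 4 of the 44 genes stood against 10.9% of all genes in that fit, so their share was no larger than that of all genes. The part of length in the difference was not tested further.

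**Figure D3:**
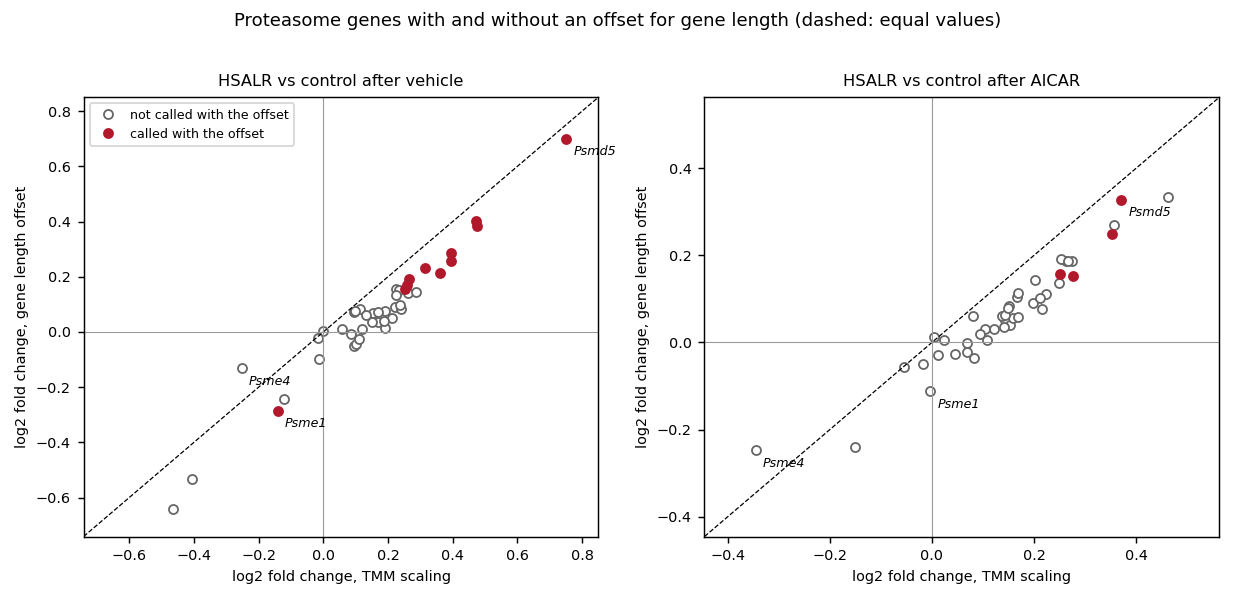
Log2 fold change of HSALR against control muscle for the 44 proteasome genes with TMM scaling alone (x axis) and with an offset for gene length (y axis), after vehicle (left) and after AICAR (right), with filled points for an adjusted p under 0.05 with the offset and a dashed line of equal values. Most points lie below the line, and Psmd5 stays highest among the filled points of both panels.

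Psmd5 had the largest difference of the 44 genes between HSALR and control muscle after vehicle. Its product is a chaperone that helps to assemble the base of the regulatory particle and is absent from the finished proteasome. It stood at 23.4, 22.3 and 24.8 normalized CPM in the vehicle-treated control mice, at 23.2, 21.2 and 23.3 in the AICAR-treated control mice, at 39.1, 41.0, 38.3, 38.3 and 41.1 in the vehicle-treated HSALR mice and at 28.6, 28.4, 30.9, 28.6 and 29.2 in the AICAR-treated HSALR mice. The 2 HSALR groups overlapped neither each other nor the control mice. After vehicle the log2 fold change of HSALR against control was 0.75 ± 0.05, a ratio of 1.68 (adjusted p = 2.27e-07), and after AICAR it was 0.37 ± 0.05 (adjusted p = 0.00019). AICAR lowered Psmd5 in HSALR mice, with a log2 fold change of -0.44 ± 0.05 (adjusted p = 9.87e-06), and in control mice the difference was -0.06 ± 0.06 (adjusted p = 0.537).

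The AICAR effects on Psmd5 differed between the genotypes by -0.38 ± 0.07 on the log2 scale (95% interval -0.52 to -0.23, adjusted p = 0.0298 in the edgeR quasi-likelihood test). It was the single gene of the 44 called for this difference, in the lower direction, against 0.484% of all genes called lower and 0.207% called higher. At an unadjusted p under 0.05, 5 of the 44 genes were lower and 0 higher, and the share of all genes at that threshold is not given here. The call was lost when any of 11 of the 16 mice was left out, and over the 16 refits the adjusted p ran from 0.0112 to 0.0909 and the difference from -0.42 to -0.34. It was also lost with the length offset (adjusted p = 0.0556) and with an epidermal score as covariate (adjusted p = 0.066). The other 2 chaperone genes, Psmd9 and Psmd10, differed between genotypes after vehicle by 0.10 ± 0.06 and 0.17 ± 0.09, and Psmd10 passed the test after AICAR at 0.27 ± 0.09, a call lost in 14 of 30 alternative settings.

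AICAR moved few proteasome genes. In HSALR mice, 2 of the 44 genes were higher and 4 were lower after AICAR, against 13.7% and 13.0% of all genes tested, and the median log2 fold change was 0.01, turning to -0.07 with scaling by library size and to -0.10 with scaling to Tbp, where the medians of all genes were -0.10 and -0.13. In control mice, 2 genes were higher, against 8.4% of all genes, and 0 were lower, against 4.77%, with a median of 0.06 against -0.01 over all genes. That median was 0.01 with library-size scaling, where all genes were at -0.05, and 0.26 with Tbp scaling, where they were at 0.19. At an unadjusted p under 0.05 in the control mice, 10 genes were higher and 3 lower. The share of all genes at that threshold is not given here. DESeq2 called 5 of the 44 genes higher and 1 lower, in a fit that called 10.7% of all genes higher and 1013 of 15487 lower. The number of calls in HSALR mice was 0 higher and 8 lower with library-size scaling, which called 2962 of the 15487 genes lower. It was 0 higher and 3 lower with Tbp scaling, which called 2071 of all genes lower. In control mice it was 1 higher and 1 lower with upper-quartile scaling, which called 945 of all genes higher and 1149 lower.

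**Figure D4:**
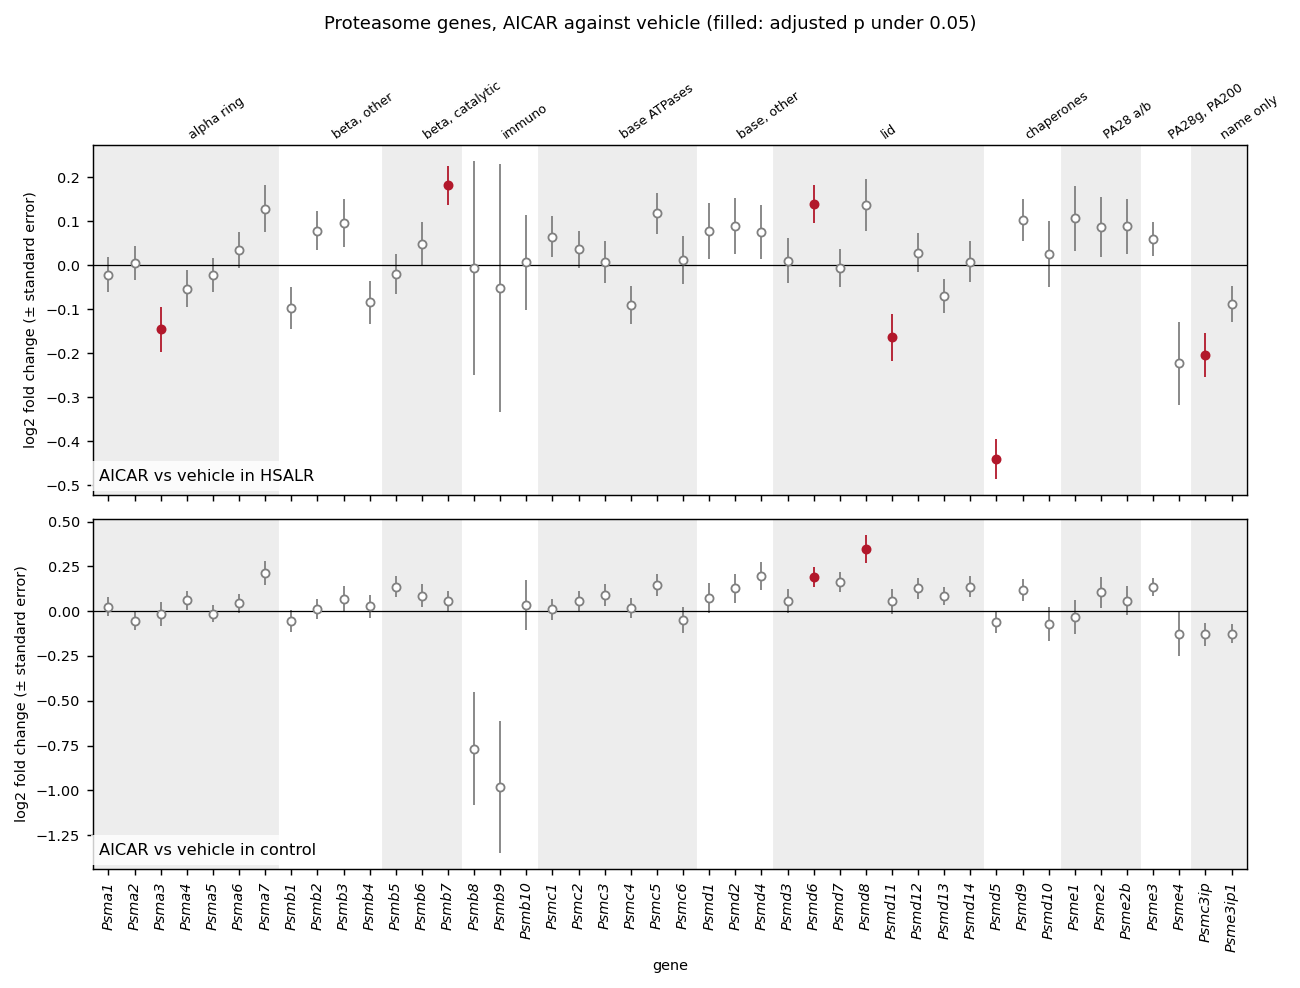
Log2 fold change (y axis, ± standard error) of the 44 proteasome genes (x axis, grouped by role) between AICAR and vehicle in HSALR mice (top) and in control mice (bottom), with filled points for an adjusted p under 0.05 and different y scales in the panels. Psmd5 is the lowest filled gene in HSALR mice, at -0.44, and Psmd8 the highest filled gene in control mice, at 0.35.

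In HSALR mice, Psmb7, the trypsin-like subunit, went from 208, 239, 217, 225 and 236 normalized CPM after vehicle to 261, 256, 256, 249 and 253 after AICAR. The groups did not overlap, and the log2 fold change was 0.18 ± 0.04 (adjusted p = 0.0071). Psmd6, a lid subunit, was at 152, 164, 158, 149.6 and 161 normalized CPM after vehicle and at 181, 168, 169, 173 and 174 after AICAR in HSALR mice, and in control mice at 143, 147 and 144 after vehicle and at 162, 156 and 176 after AICAR. The treatment groups did not overlap in either genotype, and Psmd6 rose by 0.14 ± 0.04 (adjusted p = 0.0273) and 0.19 ± 0.06 (adjusted p = 0.0354) on the log2 scale. Psmd8 rose in control mice to 133, 123 and 139 normalized CPM, which left the 3 AICAR-treated control mice above the 3 vehicle-treated ones, by 0.35 ± 0.08 (adjusted p = 0.00816). In HSALR mice it stood at 172, 157, 171, 141 and 148 normalized CPM after AICAR and differed by 0.14 ± 0.06 (adjusted p = 0.106), and the difference of -0.21 between these effects did not pass the test (adjusted p = 0.319).

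Beside Psmd5, the genes lower after AICAR in HSALR mice were Psmc3ip, Psmd11 and Psma3. Psmd11 was at 94.8, 88.9, 104, 93.6 and 87.7 normalized CPM in the AICAR-treated HSALR mice with a log2 fold change of -0.16 ± 0.05 (adjusted p = 0.0331) and the mouse at 104 inside the vehicle range. Psma3, an alpha ring subunit, went from 40.9, 45.9, 47.6, 42.8 and 45.5 to 40.9, 42.0, 39.7, 39.1 and 39.6 normalized CPM, a log2 fold change of -0.15 ± 0.05 (adjusted p = 0.0466), and 1 vehicle-treated mouse lay within the AICAR range. Psmc3ip went from 15.8, 16.7, 15.4, 16.9 and 16.4 to 13.5, 13.1, 14.3, 15.4 and 14.2 normalized CPM (log2 fold change -0.20 ± 0.05, adjusted p = 0.00777), with the ranges meeting at 15.4. Over 30 alternative settings the call was lost in 19 for Psma3, in 12 for Psmd11 and in 11 for Psmd6 in HSALR mice, and in 15 for Psmd6 in control mice. All 8 epidermal markers were lower in the AICAR-treated than in the vehicle-treated HSALR mice. With the epidermal score as covariate, Psmd5 and Psmc3ip were the 2 genes called in HSALR mice, both lower, in a fit that called 955 of the 15487 genes lower, so their share was no larger than that of all genes.

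The catalytic subunits were examined mouse by mouse, because the constitutive and the immunoproteasome forms take the same places in the ring. Psmb5 was at 53.1, 52.0 and 53.6 normalized CPM in vehicle-treated control mice, 60.7, 59.2 and 54.5 in AICAR-treated control mice, 59.4, 62.1, 61.0, 66.6 and 63.1 in vehicle-treated HSALR mice and 66.8, 61.9, 59.7, 60.2 and 59.2 in AICAR-treated HSALR mice. In control mice Psmb6 was at 122, 122 and 119.8 normalized CPM after vehicle and at 131, 126 and 128 after AICAR, and in HSALR mice at 129, 147, 134, 156 and 148 after vehicle and at 155, 147, 141, 149 and 146 after AICAR. For both genes the vehicle-treated control mice were the lowest of the 4 groups. Psmb7 was at 212, 207 and 211 normalized CPM in vehicle-treated and 223, 209 and 224 in AICAR-treated control mice, so the 5 AICAR-treated HSALR mice described above were the highest.

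The immunoproteasome genes Psmb8 and Psmb9 varied widely between mice of the same group. Psmb8 was at 11.8, 15.7 and 6.82 normalized CPM in the vehicle-treated control mice S445, S446 and S450, at 8.23, 6.39 and 5.53 in the AICAR-treated control mice, at 6.47, 10.5, 7.59, 12.7 and 5.97 in the vehicle-treated HSALR mice and at 6.69, 11.4, 10.0, 7.73 and 7.17 in the AICAR-treated HSALR mice. In control mice Psmb9 was at 4.69, 5.73 and 2.28 normalized CPM after vehicle and at 2.35, 2.12 and 1.98 after AICAR, and in HSALR mice at 2.06, 3.74, 2.76, 4.87 and 1.91 after vehicle and at 2.22, 4.42, 3.17, 2.41 and 2.57 after AICAR. Both genes were high in S445 and S446, in the vehicle-treated HSALR mouse S458 and in the AICAR-treated HSALR mouse S455. In control mice Psmb10 was at 11.1, 11.8 and 9.05 normalized CPM after vehicle and at 12.0, 10.9 and 9.84 after AICAR, and in HSALR mice at 8.84, 9.58, 8.69, 12.7 and 9.12 after vehicle and at 9.52, 11.1, 8.99, 9.57 and 9.97 after AICAR. All 4 groups overlapped.

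None of the 3 immunoproteasome genes passed the edgeR quasi-likelihood test in any of the 5 contrasts, and at an unadjusted p under 0.05 Psmb8 and Psmb9 were lower after AICAR in control mice. After vehicle the log2 difference of HSALR against control was -0.40 ± 0.28 for Psmb8 (95% interval -0.95 to 0.14), -0.46 ± 0.32 for Psmb9 (-1.09 to 0.16) and -0.12 ± 0.12 for Psmb10 (-0.37 to 0.12). These intervals were wide beside the changes called in the constitutive core. In control mice the AICAR difference was -0.77 ± 0.32 for Psmb8 (adjusted p = 0.121) and -0.98 ± 0.37 for Psmb9 (adjusted p = 0.0916), and DESeq2 called Psmb9 lower there. In the edgeR quasi-likelihood test both genes were called lower in that comparison without S450, and Psmb9 was called lower without the Krt14 libraries, among which is S450.

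As a share of the catalytic pool, that is, the summed RPKM of Psmb8, Psmb9 and Psmb10 over the sum with Psmb5, Psmb6 and Psmb7, the immunoproteasome genes made up 5.50% ± 1.60 (SD, n = 3) of the pool in control mice given vehicle and 3.86% ± 0.446 (n = 3) in those given AICAR. In HSALR mice the share was 4.01% ± 0.916 (n = 5) after vehicle and 3.73% ± 0.623 (n = 5) after AICAR. The 4 comparisons of genotype and treatment gave adjusted p = 0.571 to 0.821 in two-sided exact permutation tests over the mice. The smallest p that the control comparison of 3 against 3 mice allowed was 0.1.

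Leukocyte markers and interferon-response genes were read beside these values. The summed level of 14 leukocyte markers was 155 to 260 normalized CPM in vehicle-treated control mice, 151 to 173 in AICAR-treated control mice, 173 to 279 in vehicle-treated HSALR mice and 174 to 316 in AICAR-treated HSALR mice, with the highest mice S446, S458 and S455 also high for Psmb8 and Psmb9. S445, high for both genes, was at 155. Of the 11 markers tested, Csf1r, Cd68 and S100a8 rose in HSALR muscle after vehicle. The summed level of 20 interferon-response and antigen presentation genes was 652 normalized CPM in S445, 819 in S446 and lower in S450 than in any other control mouse, and 673 to 721 in the AICAR-treated control mice. In HSALR mice it was 432 to 730 after vehicle, highest in S458, and 621 to 815 after AICAR, highest in S455. This sum includes Ifi30, which rose after AICAR in both genotypes. The part of leukocytes or of the interferon response in the immunoproteasome levels was not tested.

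**Figure D5:**
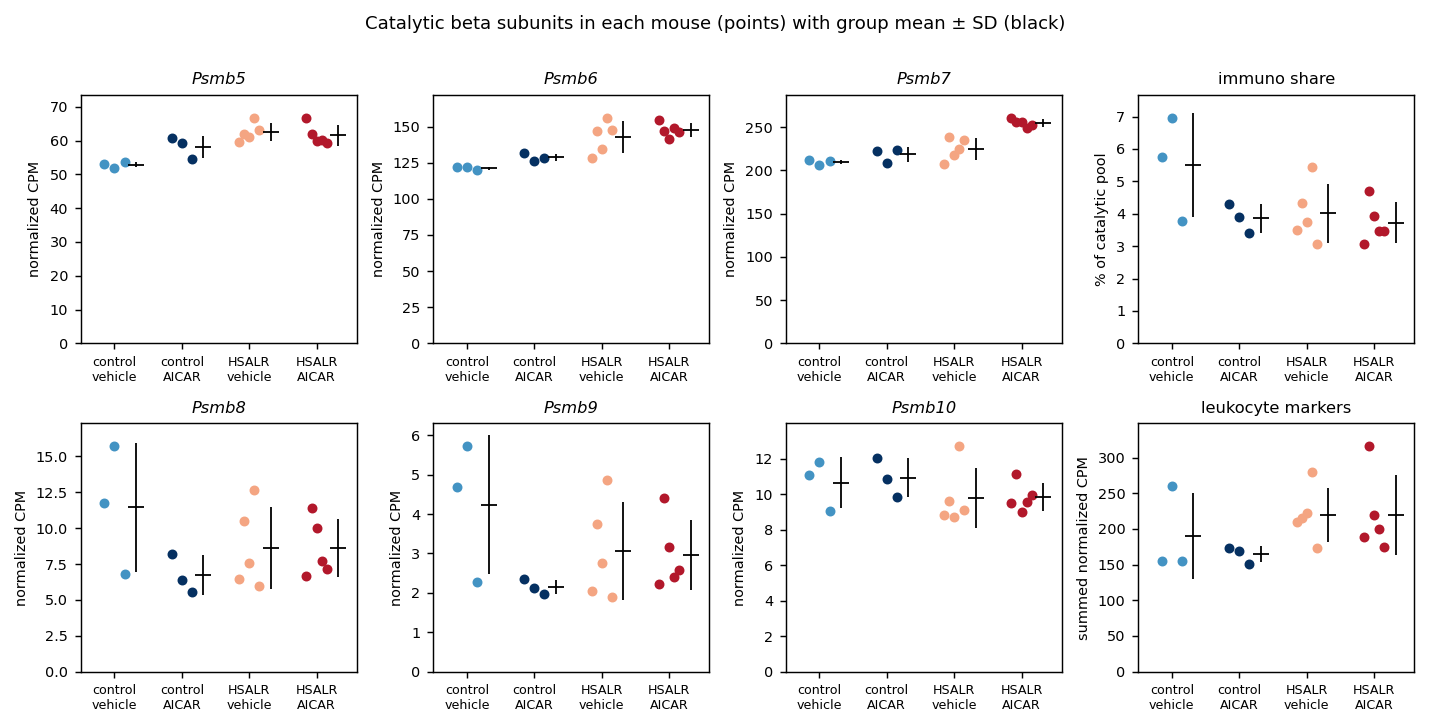
Level of the 3 constitutive catalytic genes (top) and the 3 immunoproteasome genes (bottom) in each of the 16 mice by group (y axes from 0, normalized CPM), with the immunoproteasome share of the catalytic pool in percent (top right) and the summed leukocyte markers (bottom right), and group mean ± SD in black. Psmb8 and Psmb9 scatter widely within the groups that hold S445, S446, S458 and S455.

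Apart from Psme4, no activator gene passed the edgeR quasi-likelihood test in the 5 contrasts, although other settings called some of them. DESeq2 called Psme3 higher after AICAR in control mice. In HSALR against control muscle after vehicle, Psme1 was lower with the gene length offset and without S458, Psme2 was higher without S453, and Psme2, Psme2b and Psme3 were higher with Tbp scaling. At an unadjusted p under 0.05, Psme2 was higher in HSALR muscle after vehicle and after AICAR, and Psme3 after vehicle. Psme1, which encodes PA28 alpha, was at 27.1, 25.9 and 25.3 normalized CPM in vehicle-treated control mice, 26.5, 26.5 and 23.6 in AICAR-treated control mice, 22.7, 24.5, 21.2, 28.1 and 21.7 in vehicle-treated HSALR mice and 25.1, 27.4, 23.1, 27.0 and 24.8 in AICAR-treated HSALR mice. Psme2 encodes PA28 beta. In control mice Psme2 was at 7.67, 7.88 and 8.37 normalized CPM after vehicle and at 8.89, 8.90 and 7.95 after AICAR, and in HSALR mice at 8.39, 9.57, 8.14, 10.1 and 9.12 after vehicle and at 9.34, 10.1, 10.1, 9.44 and 9.22 after AICAR. Psme2b is a near copy of Psme2, and their reads cannot be fully told apart. In control mice Psme2b was at 20.2, 20.4 and 18.8 normalized CPM after vehicle and at 21.2, 20.5 and 20.1 after AICAR, and in HSALR mice at 19.7, 22.0, 19.9, 24.3 and 20.9 after vehicle and at 23.1, 25.3, 21.5, 21.6 and 21.9 after AICAR. S458 and S455 were the highest of their groups for Psme1 and Psme2b. Psme3 encodes the nuclear PA28 gamma. In control mice Psme3 was at 66.4, 65.4 and 67.7 normalized CPM after vehicle and at 71.1, 71.4 and 76.3 after AICAR, and in HSALR mice at 70.9, 72.6, 70.8, 71.0 and 70.6 after vehicle and at 74.0, 69.1, 78.2, 76.3 and 73.4 after AICAR. It differed by 0.10 ± 0.05 between the genotypes after vehicle (adjusted p = 0.122).

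Genes that work with the proteasome but lie outside the name rule were read from the same fit. For these and the lists that follow, results of the length offset and the other settings are not given here. Of 16 further subunits, assembly factors and associated proteins, 7 were higher in HSALR muscle after vehicle, against 15.4% of all genes. The assembly chaperones Psmg4 (0.62 ± 0.10) and Psmg2 (0.37 ± 0.04), the maturation protein Pomp (0.34 ± 0.05) and Zfand2a (0.28 ± 0.08), a stress-inducible partner, had the larger log2 fold changes. Psmg4 stood at 3.12, 3.16 and 2.87 normalized CPM in vehicle-treated control mice and at 4.41, 5.07, 4.54, 4.93 and 4.42 in vehicle-treated HSALR mice, without overlap. After AICAR, 5 of the 16 were higher in HSALR muscle, against 12.2% of all genes, among them Psmg4 (0.60 ± 0.10), Zfand2a (0.36 ± 0.08), Akirin2 (0.27 ± 0.08) and Pomp (0.20 ± 0.05). AICAR raised Uchl5, a deubiquitinase of the regulatory particle, in HSALR mice by 0.26 ± 0.05 and in control mice by 0.39 ± 0.06, and in HSALR mice it raised Zfand2a by 0.27 ± 0.07 and lowered Pomp, at -0.15 ± 0.04.

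Nfe2l1 encodes NRF1, the factor known to induce proteasome genes when proteasome activity is short. Its level was 997 ± 27.7 (mean ± SD of normalized CPM) over the 3 control mice given vehicle and 1018 ± 43.3 over the 5 HSALR mice given vehicle, a log2 difference of 0.03 ± 0.06 (adjusted p = 0.764). Nfe2l2, which encodes the related factor NRF2, differed by -0.02 ± 0.13 in that comparison and was higher after AICAR in control mice, by 0.49 ± 0.14 (adjusted p = 0.0349). Of the 10 genes of the NRF1 route, 1 was higher after vehicle, the p97 adaptor Nploc4 at 0.38 ± 0.08, no larger a share than the 15.4% of all genes. After AICAR 2 were higher and 3 lower in HSALR muscle, against 12.2% and 9.64% of all genes, with Maff at -1.57 ± 0.41, Mafk at -1.15 ± 0.33, Ddi2, the protease that activates NRF1, at 0.45 ± 0.11 and Mafg at -0.32 ± 0.09. In control mice AICAR raised Maff (2.25 ± 0.49) and Nploc4 (0.40 ± 0.09) and lowered Ddi2 (-0.59 ± 0.12), and in HSALR mice Nploc4 was the gene called, at 0.20 ± 0.07. For the difference of the AICAR effects between the genotypes, 0 of the 10 were called.

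Of 13 genes of ubiquitin supply and shuttling, 4 were higher and 1 was lower in HSALR muscle after vehicle, where 15.4% and 11.5% of all genes were. Rps27a, which encodes ubiquitin fused to a ribosomal protein, rose by 0.54 ± 0.06, and the polyubiquitin gene Ubb by 0.29 ± 0.08, and the shuttle gene Ubqln2 was at -0.20 ± 0.06. After AICAR, 2 were higher and 1 lower, against 12.2% and 9.64% of all genes, with Rps27a at 0.36 ± 0.06. AICAR raised 4 of the 13 and lowered 1 in HSALR mice, against 13.7% and 13.0% of all genes. In control mice, where 8.4% of all genes rose, it raised 1 of the 13, Ubqln4, by 0.27 ± 0.07. For the difference of these effects between the genotypes, 0 of the 13 were called. Of 20 genes of the interferon response and antigen presentation, 2 were lower in HSALR muscle after vehicle, a share near the 11.5% of all genes, with Tap2 at -0.44 ± 0.14, and 18 of the 20 lay below 0 with a median of -0.23. After AICAR 0 were called in edgeR. At an unadjusted p under 0.05, 0 were higher and 6 lower after vehicle, 0 higher and 2 lower after AICAR, and 3 higher and 9 lower for AICAR in control mice. Shares of all genes at that threshold are not given here. AICAR in control mice lowered 4 of them and raised 2, against 4.77% and 8.4% of all genes, with Gbp3 at -1.68 ± 0.47, Nlrc5 at -1.59 ± 0.44, Irf8 at 0.72 ± 0.21 and Ifi30, a lysosomal thiol reductase, at 4.36 ± 0.20. In HSALR mice AICAR raised Ifi30 alone among the 20, by 4.20 ± 0.16. For the difference of the AICAR effects between the genotypes, 0 of the 20 were called.

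The promoters of the genes were searched for 4 short motifs, since constitutive and immunoproteasome genes are known to be driven by different factors. RefSeq promoters of GRCm38.p6, the 250 bases before and 50 bases after each start site, were matched for 38 of the 44 genes. TGACNNNGC, the core of the antioxidant response element that NRF1 and NRF2 bind, was present on either strand in 6 of the 38 genes, or 15.8%, against 14.0% of all genes with a promoter. The 6 genes are shown with 30 bases of the gene's strand, and the motif, or its reverse complement, in capitals.
Psmb5, chr14:54618023-54618052, minus strand: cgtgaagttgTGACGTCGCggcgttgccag
Psmb6, chr11:70525338-70525367, plus strand: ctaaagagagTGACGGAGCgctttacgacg
Psmc6, chr14:45329587-45329616, plus strand: ccagccagtaGCTAAGTCAggcattgctca
Psmd9, chr5:123228149-123228178, plus strand: atctagccggTGACCCCGCccacttccaag
Psmd12, chr11:107479278-107479307, plus strand: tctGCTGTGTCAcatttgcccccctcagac
Psme4, chr11:30771758-30771787, plus strand: cgctgcggctGCAGCGTCAccagaagagcc

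Of these 6 genes, Psmb5, Psmb6 and Psmd12 were higher in HSALR muscle after vehicle, and Psmc6, Psmd9 and Psme4 were not called. Of the 44 genes, 23 were higher there, a similar share. TTCNNNGAA, the motif of STAT factors, which reads the same on both strands, was present in 5.26% of the 38 genes against 9.55% of all genes. It was in Psmd2 and in Psmb8, the immunoproteasome gene, where it is shown in capitals.
Psmb8, chr17:34198088-34198117, plus strand: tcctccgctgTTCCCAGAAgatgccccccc

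The interferon-stimulated response element, searched as GAAA, any 2 bases and GAAA on both strands, was in 4 of the 38 genes, or 10.5%, against 3.99% of all genes, namely Psmb3, Psmd4, Psmd9 and Psme1. CCAAT, on either strand, was in 15 of the 38, or 39.5%, against 41.1% of all genes. A match describes letters in these windows and no binding was measured.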

How the data were processed

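Stranded mRNA libraries of 16 gastrocnemius muscles were sequenced. The authors mapped reads to mm10 with STAR 2.5.2a, assigned a read with equal matches to 1 location, and used QuasR to count reads that start in any exon of a RefSeq gene. The deposited values are these whole-number counts per gene, without normalization, with a gene length. Whether strand was used in counting is not given in the sources used here, so reads of overlapping antisense genes, such as Tap1 for Psmb9 and Nek6 for Psmb7, may be included. Entrez identifiers were matched to RefSeq symbols for 24374 genes, and 80 were not matched.

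The test was edgeR 4.0.16 under R 4.3.3 (TMM, filterByExpr, glmQLFit, glmQLFTest), with 1 mean per group over all 16 libraries and Benjamini-Hochberg adjustment over 15487 genes at 0.05. The study names edgeR without a design. Log2 fold changes carry standard errors of the fit. RPKM divides normalized CPM by the listed length. The immunoproteasome share was compared by two-sided exact permutation tests (scipy 1.17.1), adjusted over 4 comparisons. Simulated counts were used to test the scripts.

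Alternatives were DESeq2 1.42.0, the likelihood ratio test, limma 3.58.1 with voom, other scalings and filters, robust dispersion, only the groups compared, a gene length offset, an epidermal covariate and each mouse left out. Leaving out the 6 libraries with Krt14 was added after seeing the data. The genes and lists were chosen with earlier results of these data known. Every gene was counted in its role group. Values per mouse are given for the catalytic and activator genes and, in each contrast, for the 4 higher and 4 lower called genes with the largest change. Up to 2 further called genes and the least changed gene of a role group, and up to 4 called genes of each other list, with Nfe2l1 and Nfe2l2, are named. Other genes named as called under 1 setting or contrast were chosen after their values were seen. Some genes of the other lists are counted but not reported by name here.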

Additional observations from a re-analysis of the deposited data

Results flagged for a closer look

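In groups of 5 mice, single values that stood apart from the other 4 by more than Dixon's 95% limit were found in 6 of 90 groups tested, where chance gives about 1 in 20. In the vehicle-treated HSALR mice, Psme3 was at 72.6 normalized CPM in S452 with the others at 70.6 to 71.0, and Psma2 was at 80.3 in S451 with the others at 85.7 to 86.7. Psmb10 was at 12.7 in S458 with the others at 8.69 to 9.58, and Psmd11 was at 99.4 in S458 with the others at 106 to 108. In the AICAR-treated HSALR mice, S454 stood apart for Psmc4, at 100.5 with the others at 88.6 to 92.0, and for Psmb4, at 160.0 with the others at 144 to 147.

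The AICAR effects of the genotypes differed by -0.38 on the log2 scale for Psmd5 in the edgeR quasi-likelihood interaction test (adjusted p = 0.0298). The 5 AICAR-treated HSALR mice all lay below the 5 vehicle-treated HSALR mice, which were other animals. The groups of control mice overlapped.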

How the results depend on the processing

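The 23 genes called in HSALR against control muscle after vehicle became 36 with scaling to Tbp, which put the median log2 fold change of all genes at 0.28 and that of the 44 genes at 0.45 and called 32.6% of all genes higher. They became 11 with the length offset and 2 (Psmd5 and Psmd11) without the 6 libraries with Krt14, which left 1 vehicle-treated HSALR mouse, assumed to vary like the other groups. The 21 genes called after AICAR became 0 with Tbp scaling, 4 with the length offset and 9 without the Krt14 libraries, and 9 to 22 when each mouse was left out, with 10 without S447, 9 without S448, 13 without S449 and 12 without S454. For AICAR in HSALR mice the 6 calls became 3 with Tbp scaling, 2 with the epidermal covariate, 2 without the Krt14 libraries, and 3 to 6 when each mouse was left out, with 3 without S453. For AICAR in control mice the 2 calls became 6 with DESeq2, 5 of them higher, against 10.7% of all genes higher in that fit. They became 5 with Tbp scaling, all higher, against 13.1% of all genes. The calls became 1 with the likelihood ratio test, library-size scaling, no filter on low counts or only the groups compared. When each mouse was left out they numbered 1 to 5, with 5 without S450, among them Psmb8 and Psmb9, both lower. The count was 1 without S445, S446, S447, S448, S451 or S452. The 1 call for the difference of the AICAR effects, Psmd5, became 0 with the length offset, the epidermal covariate and without the Krt14 libraries, and 0 to 1 when each mouse was left out. The difference in the immunoproteasome share for AICAR in HSALR mice ran from -0.526 to 0.0713 percentage points, reversed without S458, and that of HSALR against control mice after AICAR from -0.377 to 0.0827, reversed to 0.0827 without S447 and to 0.0291 without S454. The larger share differences ran from -2.49 without S450 to -0.899 without S446 for AICAR in control mice, and from -2.34 without S450 to -0.749 without S446 for HSALR against control mice after vehicle. The causes were not tested. No called gene of the 44 changed sign under any alternative run. Psmb9 was the lowest gene, with a mean of 229 counts, and the bearing of depth on single genes was not tested. No paired analysis was possible because the labels give each mouse its own number.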
